A study of Mus musculus with 15 samples.

Results

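The expression of 7 genes that direct the differentiation of T helper cells was followed in islets of non-obese diabetic (NOD) mice: Tbx21, Gata3, Eomes, Stat4, Il12rb1, Il12rb2 and Il18r1. They were chosen by name, as rows of the deposited count table, so that 7 of its 48709 genes are described here. The rule itself uses no measured value, but the names were picked with earlier results of these data known. Islets were collected from female NOD mice (NOD/ShiLtJ) at 4, 6, 8, 10 and 12 weeks of age, from 3 mice at each age and 15 in all. All mice carried the same genotype and the labels name no treatment, so the groups are given by age alone, and no other strain served as a control. Days of collection, isolation and sequencing are not given in the sources used here, so a batch that follows age cannot be told apart from age. Islets were released with collagenase, enriched on a density gradient and then collected by hand. Each sample therefore holds endocrine cells together with the leukocytes and other cells that stayed on the islets. The question addressed is how the transcripts of T helper lineage regulators change while insulitis, the entry of immune cells into the islets, develops.

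Naive CD4+ T cells become T helper 1 (Th1), Th2 or Th17 cells under the influence of cytokines. Interleukin 12 binds a receptor made of the chains Il12rb1 and Il12rb2 and activates the transcription factor Stat4, and interleukin 18 acts through a receptor whose ligand-binding chain is Il18r1. Both routes favour the Th1 programme, whose lineage factor is T-bet, the product of Tbx21, and whose main cytokine is interferon gamma. Gata3 is the lineage factor of Th2 cells and is also needed for the development of T cells in general. Eomes, like T-bet a T-box factor, is best known from CD8+ T cells and natural killer (NK) cells. Several of the 7 genes are thus used by T helper cells, CD8+ T cells, NK cells and other innate lymphocytes alike, and in bulk RNA the cell that carries a transcript is not seen.

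On mm10 (GRCm38) the genes lie at chr11:97098071-97115331 (Tbx21, minus strand), chr2:9857078-9890034 (Gata3, minus), chr9:118478212-118486132 (Eomes, plus), chr1:51987148-52107189 (Stat4, plus), chr8:70808449-70821424 (Il12rb1, plus), chr6:67291318-67376188 (Il12rb2, minus) and chr1:40465552-40500854 (Il18r1, plus), as the deposited table gives them. The 3' part of Il12rb2 overlaps Serbp1 on the opposite strand over 6419 bases. Serbp1 had 4687 to 9043 counts per mouse, against 483 counts of Il12rb2 over all 15 mice, and the sources used here do not state whether the counting used strand, so that the Il12rb2 counts are uncertain to that extent. The other overlapping genes had at most 7 counts in any mouse.

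RefSeq promoter windows (GRCm38.p6) were on hand for 6 of the 7 genes (Tbx21, Gata3, Eomes, Stat4, Il12rb2 and Il18r1), 9 windows in all because Stat4 and Il18r1 have several start sites. In the 250 bases before each start site, both strands were searched for 4 short elements: TTCNNNGAA (the GAS element bound by STAT factors), AGGTGT (a T-box element), AGATAA (the element of GATA factors) and ACCACA (a Runx element). TTCNNNGAA stood in 2 of the 9 windows, that of Il12rb2 and that of the most downstream Il18r1 start site, and in 7.02% of 32851 windows of all genes. The other elements stood in 11.8% (AGGTGT), 9.99% (AGATAA) and 14% (ACCACA) of all windows and in none of the 9, so that no matches of different elements overlapped in these windows. A match is a description of the letters and not a binding site. The windows of Il12rb2 (chr6:67376189-67376438, minus strand), Eomes (chr9:118477939-118478188, plus) and Tbx21 (chr11:97115332-97115581, minus) are shown because Eomes and Il12rb2 rose the most unequally of all pairs described below and Tbx21 is the Th1 lineage factor. They hold no annotated exon, run 5′ to 3′ towards the gene, and have the match to TTCNNNGAA, 123 bases before the Il12rb2 start site, in capitals.
Il12rb2: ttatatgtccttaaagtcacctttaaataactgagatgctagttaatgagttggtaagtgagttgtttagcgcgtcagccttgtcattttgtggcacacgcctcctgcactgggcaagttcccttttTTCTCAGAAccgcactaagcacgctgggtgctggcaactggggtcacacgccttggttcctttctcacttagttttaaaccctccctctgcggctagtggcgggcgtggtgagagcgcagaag
Eomes: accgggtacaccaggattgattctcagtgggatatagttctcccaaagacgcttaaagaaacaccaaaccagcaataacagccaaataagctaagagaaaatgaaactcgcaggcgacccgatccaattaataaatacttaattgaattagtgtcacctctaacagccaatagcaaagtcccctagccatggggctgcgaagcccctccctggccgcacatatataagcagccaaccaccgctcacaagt
Tbx21: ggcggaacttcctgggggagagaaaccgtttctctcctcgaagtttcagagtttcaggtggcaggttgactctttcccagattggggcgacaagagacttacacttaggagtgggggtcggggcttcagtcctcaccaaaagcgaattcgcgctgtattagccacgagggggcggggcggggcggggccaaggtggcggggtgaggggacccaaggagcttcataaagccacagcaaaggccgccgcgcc

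Library totals ran from 25407492 to 41616275 counts, and a floor of 3 counts per library stands for 0.0754 to 0.128 CPM (library-scaled counts, with TMM factors that correct for a few abundant genes taking up reads). All 7 genes passed the filter on low counts, which kept 16554 genes. The labelled tissue carried its markers: 10 endocrine genes, insulin among them, summed to 142071 to 328806 CPM in all 15 mice. Some libraries stood apart from others of their age in leukocyte transcripts. At 4 weeks replicate 1 had 60.5 CPM of 10 summed T-cell markers, against 15.3 and 18.4 in the other two, and at 8 weeks replicate 1 had 23.2 CPM, against 166 and 216. Thy1 alone made up 43.0 to 81.0% of the T-cell marker counts at 4 weeks and 22.6 to 64.3% at 8 weeks. The islets of 6-week replicate 2 and 12-week replicate 1 carried 257 and 1335 counts of the intestinal gene Fabp2, against at most 2 in the other 13 mice. Results are given without these libraries where leaving them out changes a call.

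All 7 genes were upregulated between 4 and 12 weeks. The log2 fold changes ran from 3.53 (Il12rb1) to 6.08 (Eomes), with a median of 4.09 against -0.05 over all genes tested. Adjusted p (edgeR quasi-likelihood test, Benjamini-Hochberg over all 16554 genes) ran from 0.000894 to 0.00940. In the same comparison 26.3% of all genes were called higher. For each of the 7 genes the 3 mice of 12 weeks lay above the 3 of 4 weeks, which held for 30.3% of all genes, and an exact permutation test of 3 against 3 mice cannot go below p = 0.1. With the ages pooled, all 6 mice of 10 and 12 weeks (late) lay above all 6 of 4 and 6 weeks (early) for each of the 7 genes (exact permutation test, two-sided, p = 0.00216, the smallest that 6 against 6 mice can give). This complete separation upwards was seen in 19.7% of all genes, and 30.1% of all genes were called higher in late mice in the edgeR fit. A test for any change over the 5 ages called all 7 genes (adjusted p 0.000949 to 0.0131), as it did 56% of all genes. In bulk tissue, more cells of a type and more RNA per cell cannot be told apart.

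**Figure D1:**
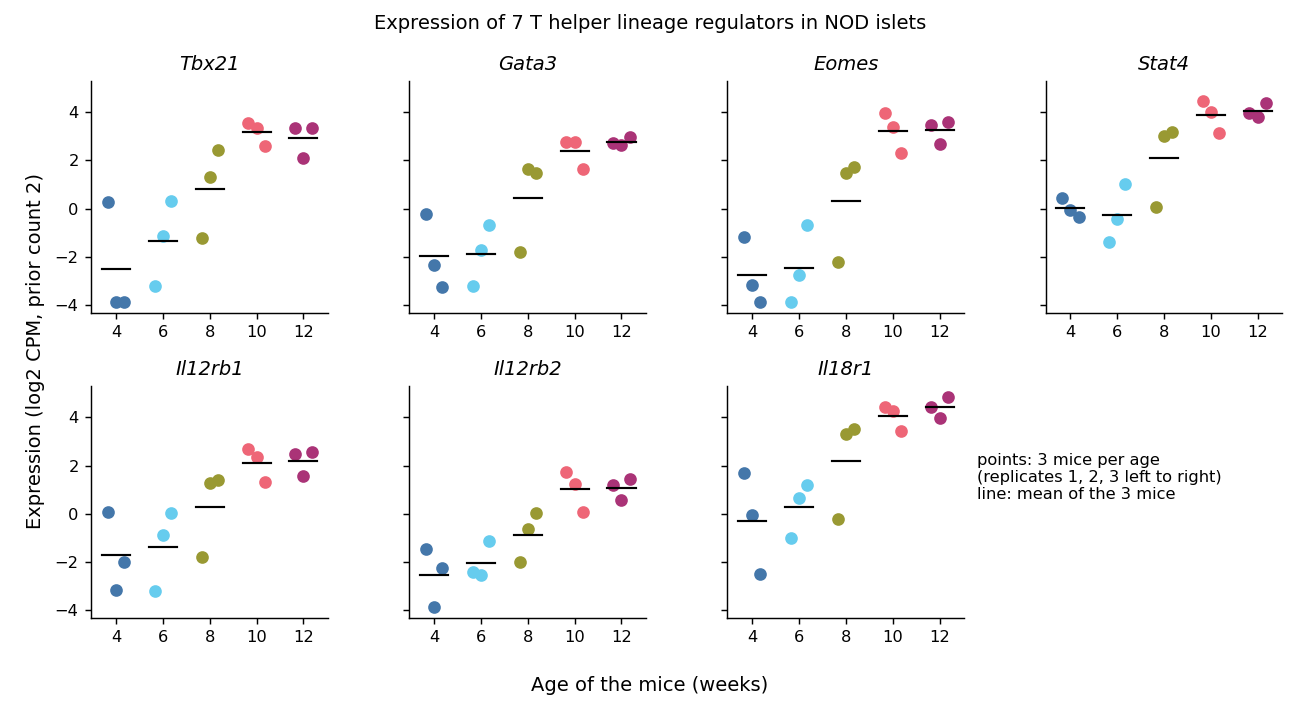
Expression of each gene in each of the 15 mice (log2 CPM with a prior count of 2, vertical axis) against age in weeks (horizontal axis); points are mice, replicates 1 to 3 from left to right, and the line is the mean of the 3 mice. The late mice lie above the early mice in all 7 panels, and replicate 1 of 8 weeks lies with the younger mice.

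Tbx21 encodes T-bet, the factor that defines Th1 cells. Its counts were 31, 0 and 0 at 4 weeks (replicates 1 to 3), 1, 15 and 30 at 6 weeks, 10, 67 and 148 at 8 weeks, 324, 397 and 180 at 10 weeks and 314, 125 and 323 at 12 weeks. The counts at 4 weeks all came from replicate 1, and the late mice did not overlap with the early ones. Mean levels were 0.387 ± 0.67 CPM (SD, n = 3) at 4 weeks and 8.17 ± 3.46 CPM at 12 weeks, which gave 4.36 ± 1.19 as log2 fold change (SE, adjusted p = 0.00842, edgeR). Without replicate 1 of 4 weeks both remaining mice were at 0 counts, and the level at 12 weeks was at least 69.0-fold higher than a floor of 3 counts per library. At 12 weeks, replicate 2 had the lowest level, 4.18 CPM against 10.2 in each of the other two.

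Eomes, the T-box factor of cytotoxic lymphocytes, had the largest fold change of the 7 genes. It had 10, 1 and 0 counts at 4 weeks, 0, 3 and 14 at 6 weeks, 4, 77 and 91 at 8 weeks, 433, 409 and 146 at 10 weeks and 339, 189 and 385 at 12 weeks. All early mice had at most 14 counts and all late mice at least 146. From 0.139 ± 0.205 CPM at 4 weeks it rose to 9.80 ± 3.07 CPM at 12 weeks (n = 3 each), and its log2 fold change of 6.08 ± 1.17 (SE, adjusted p = 0.00121, edgeR) rests on 11 counts in all at 4 weeks. Without replicate 1 of 4 weeks only 1 count was left at that age, and the estimate was 8.68.

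Gata3, the Th2 lineage factor, had a log2 fold change close to that of Tbx21. Counts were 21, 3 and 1 at 4 weeks, 1, 9 and 14 at 6 weeks, 6, 87 and 77 at 8 weeks, 185, 271 and 92 at 10 weeks and 202, 186 and 246 at 12 weeks. The 3 mice of 12 weeks were close to each other, at 6.22 to 7.73 CPM, whereas the mice of 10 weeks ranged from 3.06 to 6.81 CPM. The log2 fold change from 4 to 12 weeks was 4.40 ± 0.95 (SE, adjusted p = 0.00227, edgeR), from 0.317 ± 0.409 to 6.83 ± 0.797 CPM (SD, n = 3), and it was 6.36 without replicate 1 of 4 weeks. The difference between the changes of Tbx21 and Gata3, tested in late against early mice, was 0.46 ± 0.44 on the log2 scale and did not pass (adjusted p = 0.412, exact permutation test).

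Stat4 transmits the interleukin 12 signal, and it was the only 1 of the 7 genes with more than 3 counts in every mouse. It had 35, 21 and 20 counts at 4 weeks, 8, 26 and 50 at 6 weeks, 27, 222 and 254 at 8 weeks, 606, 643 and 264 at 10 weeks and 475, 421 and 655 at 12 weeks. The 3 mice of 4 weeks lay close together, replicate 1 included. Its level rose from 0.977 ± 0.301 to 16.7 ± 3.44 CPM (n = 3 each) between 4 and 12 weeks, with a log2 fold change of 4.09 ± 0.75 (SE, adjusted p = 0.000894, edgeR), and without replicate 1 of 4 weeks the log2 fold change was 4.36.

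Both chains of the interleukin 12 receptor rose. Il12rb1, the chain that the interleukin 23 receptor also uses, had 26, 1 and 5 counts at 4 weeks, 1, 18 and 24 at 6 weeks, 6, 67 and 73 at 8 weeks, 176, 199 and 73 at 10 weeks and 168, 88 and 184 at 12 weeks. The log2 fold change from 4 to 12 weeks was 3.53 ± 0.98 (SE, adjusted p = 0.00940, edgeR), and 5.30 without replicate 1 of 4 weeks. Without the 2 libraries with intestinal transcripts Il12rb1 was the only 1 of the 7 genes that the test for any change over the ages did not call (adjusted p = 0.0565). Il12rb2, the chain that recruits Stat4 and is a hallmark of Th1 cells, was the gene with the fewest counts: 8, 0 and 4 at 4 weeks, 3, 4 and 10 at 6 weeks, 5, 16 and 27 at 8 weeks, 90, 90 and 30 at 10 weeks and 68, 43 and 85 at 12 weeks. It rose from 0.148 ± 0.15 to 2.10 ± 0.623 CPM (n = 3 each), with a log2 fold change of 3.75 ± 0.80 (SE, adjusted p = 0.00212, edgeR), which was 4.70 without replicate 1 of 4 weeks. In the 6 late mice Il12rb1 had between 1.96 and 2.47 times as many counts as Il12rb2, a narrow range.

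Il18r1, the ligand-binding chain of the interleukin 18 receptor, had the most counts of the 7 genes. They were 85, 21 and 3 at 4 weeks, 11, 58 and 56 at 6 weeks, 22, 274 and 320 at 8 weeks, 602, 772 and 326 at 10 weeks and 666, 464 and 919 at 12 weeks. The early mice spread widely and were all below the late mice. The log2 fold change from 4 to 12 weeks was 3.97 ± 0.95 (SE, adjusted p = 0.00414, edgeR), from 1.40 ± 1.6 to 22.0 ± 6.7 CPM (SD, n = 3), and it was 5.49 without replicate 1 of 4 weeks.

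The steps between neighbouring ages show where the change fell. Between 4 and 6 weeks none of the 7 genes was called, with log2 fold changes from -0.22 to 0.48 and unadjusted p of at least 0.696 (edgeR). At that step 0.00604% of all genes were called higher, and neither the edgeR exact test nor DESeq2 called any of the 7. At a fold change of at least 1.5 and an unadjusted p under 0.05, the study's kind of threshold, none of the 7 passed, against 1.15% of all genes. Replicate 1 of 4 weeks had the highest count of its age for each of the 7 genes, and without it the estimates were all positive. They then ran from 0.27 (Stat4) to 3.08 (Eomes) on the log2 scale for the 6 genes other than Tbx21, among them 1.74 for Gata3, 2.03 for Il12rb1, 1.33 for Il12rb2 and 1.52 for Il18r1, and none of these 6 passed either threshold. Tbx21, then without a count at 4 weeks, passed the fold and unadjusted p threshold at an unadjusted p of 0.0301 (edgeR), as did 1.59% of all genes, and missed the adjusted one (adjusted p = 0.595, edgeR). Between 6 and 8 weeks all 7 estimates were positive, from 2.85-fold (Il12rb2) to 10.1-fold (Eomes), and none passed the adjusted threshold, as was the case for all genes (0% called, with 2983 genes at an unadjusted p under 0.05, and 301 called by the edgeR exact test and 558 by DESeq2). At the fold and unadjusted p threshold Gata3, Eomes, Stat4 and Il18r1 passed, 4 of 7 genes against 8.4% of all genes. After adjustment the edgeR exact test called Stat4 higher, as it did 1.59% of all genes, and DESeq2 called Stat4 and Gata3, as it did 2.7% of all genes. Replicate 1 of 8 weeks decided the adjusted calls: without it 4 of the 7 passed (Gata3, Eomes, Stat4 and Il18r1, adjusted p 0.0272 to 0.0478, edgeR), with log2 fold changes from 2.92 to 3.89, against 4.29% of all genes called higher in the same fit. The count at the fold and unadjusted p threshold was 7 of 7 without that library (11.5% of all genes). It was also 7 of 7 without replicate 3 of 6 weeks (9.89% of all genes), which had the most T-cell transcripts of its age, and 2 of 7 without the 2 libraries with intestinal transcripts (4.13% of all genes). Eomes moved the most without replicate 3 of 6 weeks, from 3.34 to 5.34 on the log2 scale.

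Between 8 and 10 weeks the 7 estimates were again all positive, from 2.36-fold (Il18r1) to 4.997-fold (Eomes). None passed the adjusted threshold, where 8.4% of all genes were called higher. Eomes and Il12rb2 passed the fold and unadjusted p threshold, 2 of 7 genes against 11.1% of all genes. Il12rb2 was called after adjustment by the edgeR exact test (adjusted p = 0.0451) and by DESeq2 (adjusted p = 0.0300), and by the quasi-likelihood test without replicate 3 of 10 weeks (adjusted p = 0.0322). These fits called 9.93%, 14.2% and 16% of all genes higher, so that 1 gene of 7 is near the background. The count at the fold and unadjusted p threshold was 0 without replicate 1 of 10 weeks (5.94% of all genes), 1 without replicate 1 of 8 weeks (6.07%) and 4 without replicate 3 of 8 weeks (13.3%). Between 10 and 12 weeks no change was called in any of the 7 by these 3 tests, with estimates from 0.886-fold (Tbx21) to 1.27-fold (Il18r1) and unadjusted p of at least 0.678 (edgeR). The quasi-likelihood test called no gene higher at that step (0%), while 1245 of the 16554 genes had an unadjusted p under 0.05 in it. The exact test called 8 genes and DESeq2 12, in either direction.

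**Figure D2:**
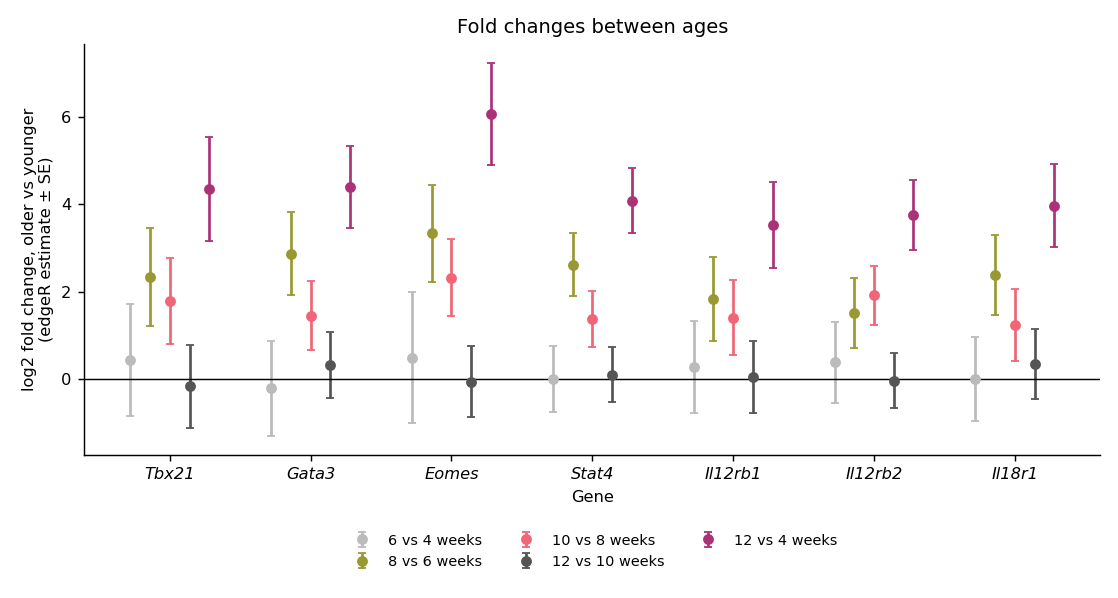
Log2 fold change of each gene between ages, older against younger (edgeR estimate, vertical axis, with 1 SE either way), for the 4 neighbouring steps and for 12 against 4 weeks. The steps from 4 to 6 and from 10 to 12 weeks lie near 0, and the estimates from 6 to 8 and from 8 to 10 weeks are all positive, from 1.24 to 3.34.

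Levels can be compared between genes on the deposited TPM values, which are scaled by transcript length. At 12 weeks the order of mean TPM was Il18r1 (11.6 ± 4.22, SD, n = 3), Stat4 (10.9 ± 2.98), Tbx21 (8.32 ± 3.69), Eomes (5.98 ± 2.10), Gata3 (4.34 ± 0.786), Il12rb1 (2.91 ± 1.05) and Il12rb2 (1.41 ± 0.487). Of the neighbours in this order, Gata3 and Il12rb1 were the pair whose ranges over the 3 mice did not overlap, and the others were not apart beyond their spread. Within single mice the order was more regular, since Tbx21 was above Eomes, Gata3 above Il12rb1 and Il12rb1 above Il12rb2 in all 3. At 10 weeks Stat4 (9.92 ± 4.45) was the highest and Il12rb2 (1.41 ± 0.771) again the lowest, and all neighbours overlapped. At 4 weeks the order was different: Il18r1 (0.571 ± 0.669) and Stat4 (0.488 ± 0.168) were the highest, Eomes (0.0665 ± 0.0992) was the lowest, and all neighbours overlapped.

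**Figure D3:**
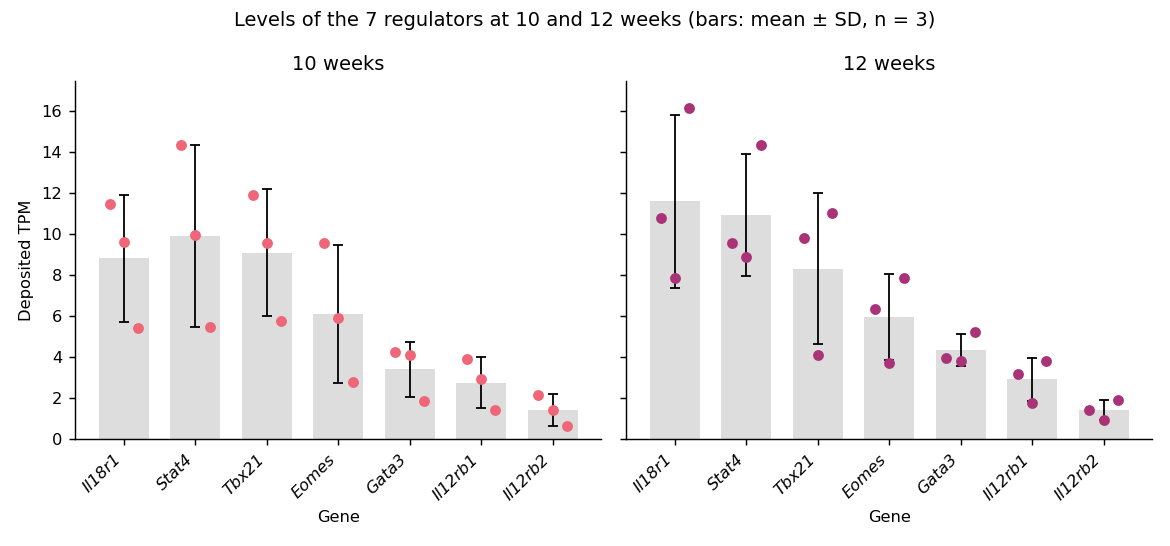
Deposited TPM of the 7 genes at 10 weeks and at 12 weeks (vertical axis, linear from 0); bars are means, lines 1 SD either way and points the 3 mice. Gata3 lies above Il12rb1 without overlap at 12 weeks, and Il12rb2 is the lowest gene at both ages.

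The 7 genes rose beside the transcripts of the cells that use them. The 10 T-cell markers, Cd3d and Lck among them, summed to between 15.3 and 60.5 CPM in the mice of 4 weeks. The range was 19.4 to 55.6 CPM (6 weeks), then 23.2 to 216 (8 weeks), 243 to 529 (10 weeks) and 411 to 569 (12 weeks), and all 10 were called higher at 12 than at 4 weeks. Thy1 alone made up 43.0 to 81.0% of these marker counts at 4 weeks, against 19.0 to 20.6% at 12 weeks, so the early sums rest largely on 1 gene. The 8 NK and innate lymphocyte markers summed to 0.253 to 10.97 CPM in the mice of 4 weeks and 35.2 to 69.3 CPM in those of 12 weeks, with 7 of 8 called higher. Prf1, which cytotoxic T cells also express, rose the most of these markers (5.23 ± 1.15 on the log2 scale), so the list is not particular to NK cells. Cd8b1, Cd8a and Cd4 were all 3 called, with log2 fold changes of 5.61, 5.14 and 4.74. The 6 B-cell markers (4.56 to 8.55 CPM against 232 to 360) and the 9 myeloid markers (40.6 to 171 against 1054 to 1156) were also all called higher. Of 10 endocrine markers 8 were called lower, of 10 mesenchymal and endothelial markers 7 were called higher, and none of 10 acinar markers was called (lowest unadjusted p = 0.232, edgeR). The defining marker of NK cells, Ncr1, rose by 3.60 on the log2 scale (adjusted p = 0.00505, edgeR). The part that the number of each kind of cell had in the rise of the 7 genes was not tested beyond the ratios that follow.

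Each of the 7 genes was therefore also set against the T-cell markers of the same mouse, as log2 CPM of the gene minus the mean log2 CPM of the 10 markers, and against each other gene of the 7. These were 28 ratios, compared between the 6 late and the 6 early mice by exact permutation tests (two-sided), with adjustment over the 28. Eomes rose relative to the T-cell markers by 0.80 ± 0.21 (SE, adjusted p = 0.0121, exact permutation test). Tbx21 did not move detectably (-0.07 ± 0.34, adjusted p = 0.792), nor did Stat4 pass (-0.95 ± 0.44, adjusted p = 0.0889, exact permutation tests). Relative to the markers Gata3 fell by 0.53 (adjusted p = 0.0253), Il18r1 by 0.79 (adjusted p = 0.0220), Il12rb1 by 1.34 and Il12rb2 by 1.72 (both adjusted p = 0.00758, exact permutation tests, no overlap between late and early mice for these 2). The 5 of 7 that passed became 3 of 7 without replicate 1, 2 or 3 of 10 weeks, each left out alone. Low counts in the early mice make these ratios sensitive to the prior count that is added before the logarithm: at 0.5 in place of 2, Eomes (1.55, adjusted p = 0.00866) and Il18r1 (-0.86, adjusted p = 0.0152) stayed past the threshold, whereas Il12rb1 (adjusted p = 0.0606), Il12rb2 (adjusted p = 0.189) and Gata3 (adjusted p = 0.110) did not (exact permutation tests). The reference matters as well, since against Cd3e alone the value of Eomes was 0.25 (adjusted p = 0.593, exact permutation test). Thy1 made up 40.2 to 82.7% of the T-cell marker counts at 4 and 6 weeks. Without Thy1 the value of Eomes was 0.51 (adjusted p = 0.133), and Stat4 passed (-1.24, adjusted p = 0.0373, exact permutation tests). Gata3, Il18r1, Il12rb1 and Il12rb2 still passed without Thy1, and Tbx21 still did not. The NK list, as given above, is not particular to NK cells. Against it in place of the T-cell markers, Gata3 (0.71, adjusted p = 0.00758) and Tbx21 (1.17, adjusted p = 0.0121, exact permutation tests) turned positive. The values of Il18r1 (0.45, adjusted p = 0.216) and Stat4 (0.28, adjusted p = 0.515) also turned positive but did not pass (exact permutation tests). Eomes rose against that list too (2.03, adjusted p = 0.00758), and Il12rb1 (-0.10) and Il12rb2 (-0.48) did not pass (adjusted p = 0.743 and 0.478, exact permutation tests).

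The ratios between the 7 genes need no reference list. Of the 21 pairs, 8 changed between early and late mice, and 5 of these involved Eomes, which rose more than Il12rb2 (by 2.51 ± 0.41 on the log2 scale), Il12rb1 (2.13 ± 0.31), Stat4 (1.75 ± 0.32), Il18r1 (1.59 ± 0.35) and Gata3 (1.33 ± 0.22, all 5 adjusted p = 0.00758, exact permutation test, n = 6 each). For all 5 the late mice did not overlap with the early mice, and all 5 passed with a prior count of 0.5 and with each of the 12 mice left out in turn. Tbx21 rose more than Il12rb1 by 1.27 ± 0.35 (adjusted p = 0.00758, exact permutation test), which also held under those alternatives. It rose more than Il12rb2 by 1.64 ± 0.58 (adjusted p = 0.0121), and Gata3 more than Il12rb2 by 1.18 ± 0.45 (adjusted p = 0.0373, exact permutation tests), and these 2 did not pass with a prior count of 0.5. The difference between Eomes and Tbx21 was 0.87 ± 0.39 and did not pass (adjusted p = 0.0985, exact permutation test). Without replicate 2 of 4 weeks, which had no count of Tbx21 or Il12rb2 and 1 of Eomes, 13 pairs passed, Eomes and Tbx21 among them (-1.15 for Tbx21 minus Eomes, adjusted p = 0.00932, exact permutation test). Within the T-box pair, Eomes had between 0.20 and 0.47 times the counts of Tbx21 in the 3 early mice with at least 10 counts of Tbx21, and between 0.81 and 1.51 times in the 6 late mice.

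Counts per 1000 counts of the T-cell markers, Thy1 left out, need no prior count, and they were read in the 11 mice with at least 300 such marker counts. They are a different quantity from the tested ratios, which used the mean log2 CPM of the markers, Thy1 included, in all early and late mice. Eomes had 10.8 counts per 1000 in 4-week replicate 1, 6.96 and 16.6 in 6-week replicates 2 and 3, and 19.4 to 36.9 in the late mice. The late mice were all above these 3 early ones. Il12rb1 ran the other way, with 28.2, 41.8 and 28.4 in the same 3 early mice and 9.03 to 15.5 in the late mice, as did Il12rb2 with 8.68, 9.28 and 11.8 against 4.41 to 7.66 and Il18r1 with 92.2, 135 and 66.4 against 47.6 to 62.6. Tbx21 had 33.6, 34.8 and 35.5 against 12.8 to 32.6, where the lowest value was that of 12-week replicate 2. The late mice were thus all below these 3 early ones for Tbx21 too, whereas its tested ratio to the T-cell markers did not move detectably (-0.07). Gata3 (22.8, 20.9 and 16.6 against 15.7 to 19.1) and Stat4 (38.0, 60.3 and 59.2 against 43.2 to 51.6) overlapped between early and late mice. Among the 6 late mice Stat4 and Gata3 were the steadiest, with a highest value 1.19 and 1.21 times the lowest, and Tbx21 the most variable, at 2.54 times. With 3 early mice, and those the ones with the most leukocyte transcripts of their age, these values are a description and were not tested.

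**Figure D4:**
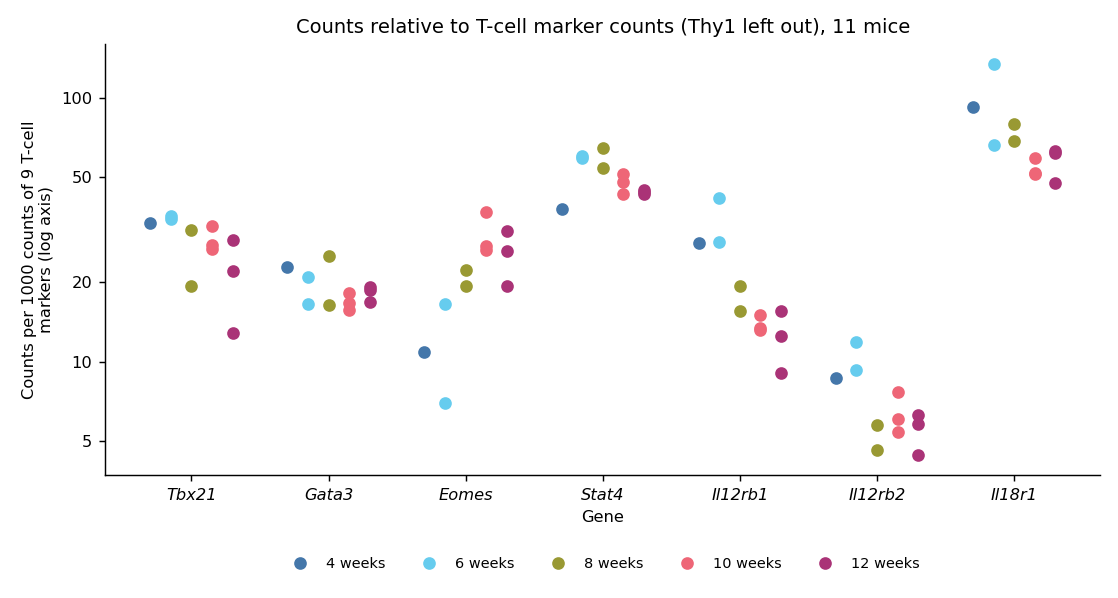
Counts of each gene per 1000 counts of 9 T-cell markers (vertical axis, logarithmic; Thy1 left out) in the 11 mice with at least 300 such marker counts; each point is a mouse and colours give the age. Eomes is lowest at 4 and 6 weeks (6.96 to 16.6), whereas Il12rb1 (28.2 to 41.8) and Il12rb2 (8.68 to 11.8) are highest there.

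The genes whose course over the 15 mice was most like that of each of the 7 were found by the root mean square difference of mean-centred log2 CPM, which is 0 for parallel courses. For Gata3 they were Lcp2 (0.21), Slfn2 (0.24) and Lck (0.24), of which Lck is the kinase of the T-cell receptor and is also among the T-cell markers. For Eomes they were Tcf7 (0.30), a T-cell transcription factor, Ltb (0.39) and the CD8 chain Cd8b1 (0.39). Stat4 lay nearest to Gfi1 (0.27), Arhgap27os3 (0.28) and Rasal3 (0.28), and Il18r1 to Amica1 (0.22), Ifi205 (0.28) and AI662270 (0.29). Il12rb1 lay nearest to Cd244 (0.27), a receptor of NK and T cells, and to the myeloid genes Clec4a3 (0.30) and Csf3r (0.36), Il12rb2 to A630001G21Rik (0.33), Fgd3 (0.34) and Lat2 (0.35), and Tbx21 to Kmo (0.43), Spn (0.44) and Il4i1 (0.45). None of the 7 genes was among the 3 nearest of another: the closest pair was Gata3 and Il18r1 (0.40), and Il18r1 ranked 66 among all genes by its distance to Gata3. For comparison, the 7 genes themselves varied around their own means by 1.67 (Il12rb2) to 2.86 (Eomes), so that all these genes share the rise with age.

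The ligands of the receptors were measured in the same libraries. Il12b, which encodes the p40 subunit shared by interleukins 12 and 23, rose by 2.90 ± 1.15 on the log2 scale between 4 and 12 weeks (adjusted p = 0.0486, edgeR), and its counts were 1 to 33 at 4 weeks, 4 to 151 at 8 weeks and 74 to 165 at 12 weeks. Il12a, the p35 subunit particular to interleukin 12, had 0 to 1 counts at 4 weeks, none at 6 weeks and 21 to 23 at 12 weeks. Il18 rose by 2.07 ± 0.34 (adjusted p = 0.000572, edgeR), from 19 to 23 counts at 4 weeks to 90 to 133 at 12 weeks, without overlap. The second chain of the interleukin 18 receptor, Il18rap, missed the threshold (2.90 ± 1.17, adjusted p = 0.0518), while Il18bp, the secreted inhibitor of interleukin 18, passed it (1.95 ± 0.66, adjusted p = 0.0242, both edgeR). Ifng, the cytokine that Stat4 and T-bet switch on, rose by 3.45 ± 1.21 (adjusted p = 0.0290, edgeR), from 0 to 23 counts at 4 weeks to 52 to 158 at 12 weeks, the lowest of the latter in replicate 2.

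Around the 7 genes, a list of 20 other genes of the Th1 axis had 19 called higher and none lower at 12 against 4 weeks, Il18rap being the exception, with a median log2 fold change of 2.68. It ranged from Tyk2 (0.77 ± 0.12), a kinase bound to Il12rb1, to Il27ra (5.53 ± 0.90). Of 14 genes of the Th2 axis 10 were tested, and 9 were called higher and 1 lower, with a median of 3.27. Il4, Il5, Il13 and Ptgdr2 had too few counts to be tested, so this median leaves out the Th2 cytokines. Gfi1 (4.67 ± 0.81) and Il2rg (4.09 ± 0.85), the common cytokine receptor chain that is not particular to Th2 cells, rose the most, and Bhlhe41 fell by 0.46. The Th2 cytokines themselves were near the floor, with at most 2 counts of Il4, 3 of Il5 and 3 of Il13 in any mouse, so that no change of theirs was detectable at this depth. Of 16 genes of the Th17 axis 12 were tested, of which 7 were called higher and 3 lower, with a median of 0.82. Ccr6 (5.24 ± 0.64) and Il21r (5.03 ± 0.94) rose the most, both also used by B cells, Rora gave -0.08 ± 0.09 (adjusted p = 0.481, edgeR), and Il17a and Il17f had no count in any mouse.

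**Figure D5:**
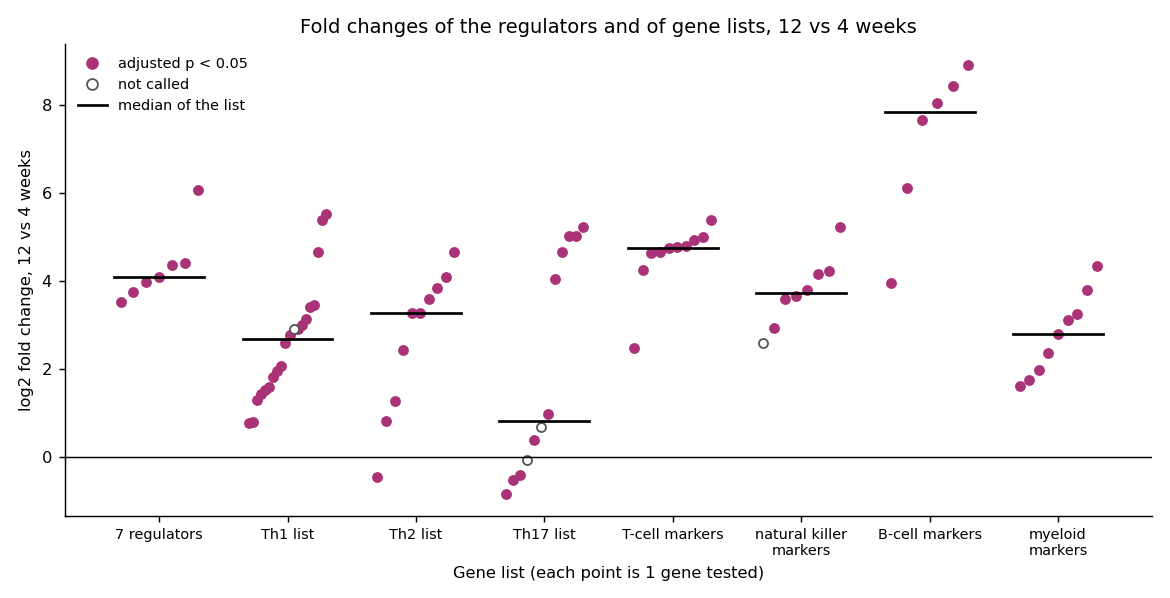
Log2 fold change of every tested gene at 12 against 4 weeks (vertical axis) for the 7 genes and for 7 gene lists; filled points had an adjusted p under 0.05, open points did not, and lines are medians. The 7 genes lie between 3.53 and 6.08, the T-cell markers have a median of 4.76, and the Th17 list splits, with 5 genes above 4 and the other 7 below 1.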

How the data were processed

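Per the labels and the study's methods, polyA RNA of islets from 15 separate female NOD mice was sequenced in pairs of reads, and the reads were trimmed, aligned to mm10 and counted with CLC Genomics Workbench at default settings. Whether the counting used strand is not given in the sources used here. The authors deposited 1 table with, for each gene and mouse, raw counts of reads (whole numbers, not normalized). The same table holds TPM deposited by the authors, which are scaled by transcript length and library and were used here only to order levels between genes. It also holds RPKM deposited by the authors and a score, their CPM after a further scaling, and these 30 columns were not used. Columns with the authors' own comparisons (fold changes and p-values between ages) were not used either. Of 48349 genes with an identifier in GENCODE M21, 42717 (88.4%) had identical coordinates there, all 7 genes among them.

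Samples were grouped by the age in the labels. Counts were filtered with filterByExpr (16554 of 48709 genes kept), normalized by TMM and fitted with 1 mean per age by edgeR (4.0.16, R 4.3.3), with quasi-likelihood tests and Benjamini-Hochberg adjustment over all genes tested, and calls were made at an adjusted p under 0.05. The study's kind of threshold, a fold change of at least 1.5 with an unadjusted p under 0.05, was read from the same fit, and the edgeR exact test and DESeq2 (1.42.0) were alternatives. Ratios used log2 CPM with a prior count of 2 and exact two-sided permutation tests (Python 3.11.15, scipy 1.17.1), with adjustment over 28 ratios. SE of a fold change is that of the edgeR estimate, and the floor is 3 counts per library, which covers counting error only. All 7 genes are described, and of each other list the 2 genes with the largest change at 12 against 4 weeks and the one with the smallest, beside the ligands, second chains and cytokines of these receptors. Some genes of these lists are not reported here by name. The nearest genes are the 3 with the smallest root mean square difference.

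Replicates of an age differed by more than sampling noise (chi-square per degree of freedom 15.9 to 127), so each mouse counts as 1 sample. The edgeR fit was tried on simulated counts with the same spread setting for every gene, and the permutation test on simulated normal values. These trials do not show how the tests behave at the spread and low counts of these mice. Other scalings, filters, tests, prior counts, references, a replicate block and leaving out each mouse were tried. The genes and lists were chosen with earlier results of these data known, and 3 alternatives were added after seeing the data (2 that leave out the libraries that stood apart and 1 that leaves out Thy1).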

Additional observations from a re-analysis of the deposited data

Results flagged for a closer look

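In 7 of 70 sets of 6 mice (early or late) 1 mouse lay far from the other 5, where chance alone gives about 1 set in 20. The sets are levels and ratios of the same 7 genes in the same mice and are not independent. Whether 7 of 70 is more than chance gives can therefore not be judged. Gata3 stood at 1.64 log2 CPM in 10-week replicate 3, against 2.65 to 2.96 in the other late mice, and this mouse also had the fewest T-cell marker counts of the late mice. The log2 ratio of Tbx21 to Gata3 was -0.57 in 12-week replicate 2, against 0.39 to 0.95 in the other late mice, and the ratio of Gata3 to Il12rb1 was 1.06 in the same mouse, against 0.07 to 0.44. That mouse had the lowest Tbx21 level of its age. The ratio of Eomes to Il12rb1 was 1.29 in 10-week replicate 1, against 0.98 to 1.09.

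The other 3 were in early mice with few counts. Tbx21 against the T-cell markers was -3.50 in 4-week replicate 2, which had no Tbx21 count, against -2.27 to -1.73 in the others. In 4-week replicate 3, with 3 counts of Il18r1, the ratio of Gata3 to Il18r1 was -0.76, against -2.39 to -1.88, and that of Stat4 to Il18r1 was 2.16, against -1.24 to 0.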

How the results depend on the processing

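The 7 calls at 12 against 4 weeks and in late against early mice, and the absence of adjusted calls from 4 to 6 and from 10 to 12 weeks, were the same under every alternative run. At the fold and unadjusted p threshold the count of 0 from 4 to 6 weeks became 1 (Tbx21) without both 4-week replicate 1 and 8-week replicate 1, and 0 to 1 with 1 mouse left out, and that from 10 to 12 weeks stayed 0. From 6 to 8 weeks the adjusted count of 0 was 1 with the edgeR exact test, 2 with DESeq2, 4 without both 4-week replicate 1 and 8-week replicate 1, and 0 to 4 with 1 mouse left out. At the fold and unadjusted p threshold the count of 4 was 7 without both of those libraries, 2 without both libraries with intestinal transcripts, and 3 to 7 with 1 mouse left out. The share of all genes past that threshold was 4.13% without the libraries with intestinal transcripts. It is not given for the fit without 4-week replicate 1 and 8-week replicate 1, nor for every fit with 1 mouse left out. From 8 to 10 weeks the adjusted count of 0 was 1 with the exact test and 1 with DESeq2, and 0 to 1 with 1 mouse left out, and the count of 2 at the other threshold was 1 with DESeq2 and 0 to 4 with 1 mouse left out. Among all genes these 3 tests called 15, 173 and 245 (quasi-likelihood, exact, DESeq2) from 4 to 6 weeks, 0, 301 and 558 from 6 to 8 weeks, 2776, 2939 and 4154 from 8 to 10 weeks, and 0, 8 and 12 from 10 to 12 weeks. Ratios to the T-cell markers passed in 5 of 7 genes, in 2 with a prior count of 0.5, in 3 against Cd3e, in 2 against Ptprc, in 3 against the NK list and in 3 to 6 with 1 mouse left out. For none of these ratio counts is the share of all genes given. Against the NK list the values of Tbx21 (1.17), Gata3 (0.71), Il18r1 (0.45) and Stat4 (0.28) turned positive. With Thy1 left out of the T-cell markers, Stat4 passed and Eomes did not. The 8 pairs became 6 to 13 with 1 mouse left out. Scaling by library totals moved the median of all genes at 12 against 4 weeks from -0.05 to 0.20. Of 1243 values of single genes or ratios, 34 lost a call, 23 gained one, 3 reversed and the other 1183 stayed on their side of the threshold. The causes were not tested.

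Replicate numbers are shared between ages. They did not pair the mice: 3 of 15 same-numbered pairs correlated above 0.1 (range -0.50 to 0.51). In 3 of these 15 pairs the correlation was higher than with the mice of other numbers. In the fit with a replicate block, the adjusted counts of the 7 genes stayed 0 at each of the 4 steps between neighbouring ages and 7 in the other comparisons, while the calls among all genes from 8 to 10 weeks went from 2776 to 0. Gata3, Eomes and Il12rb2 gave no value from 4 to 6 weeks when only those 2 ages were fitted. Depth limits the early mice: 3 counts were 0.0754 to 0.128 CPM, and Tbx21, Gata3 and Eomes were at or under 3 counts in 3, 3 and 4 of the 15 mice.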
